A study of Mus musculus with 4 samples.

Results

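The genes described here are 40 enzymes, regulators and transporters of carbohydrate metabolism, from hexokinase to lactate, with the fructose, pentose phosphate, pyruvate dehydrogenase and glycogen branches. They were taken from a list of gene symbols, matched to the gene names of the array, and each was represented by its brightest probe. All 40 were among the 20655 genes with a probe well above background on every array. The expression of these genes was measured in the prefrontal cortex of B6J mice aged 3 months, on 4 single-colour Agilent arrays of 60-base probes. The wild-type starch group, which the study used as its control, was fed starch from weaning (postnatal day 21) for about 70 days. The wild-type sucrose group ate a sucrose diet over the same time. The heterozygous starch and heterozygous sucrose groups were heterozygous for Glo1, which encodes glyoxalase 1, and ate the same diets. Per the labels, RNA of 3 mice was pooled for each group, and the nature of the Glo1 allele and the sex of the mice are not given in the sources used here.

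Glycolysis splits glucose into triose phosphates and then pyruvate, which is either reduced to lactate or passed to mitochondria through the pyruvate dehydrogenase complex. Fructose, a component of sucrose, enters at the level of the triose phosphates, after phosphorylation by ketohexokinase and cleavage by aldolase. Triose phosphates also give rise, without an enzyme, to methylglyoxal, the reactive carbonyl that glyoxalase 1 removes. In brain, astrocytes are known for a high rate of glycolysis and for the release of lactate, which monocarboxylate transporters carry between cells.

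With 1 array of pooled RNA in each group, no difference between a pair of groups has a replicate error or a p-value. Levels are given as multiples of the array's own 75th percentile of signal. Differences are on the log2 scale, and a difference of 1.5-fold, which is 0.58 on that scale, was taken as the threshold. Levels of different genes are not compared, because probes differ in their binding. On the 4 arrays, the 75th percentile lay between 1780 and 1929 intensity units, and 77.6% to 80.2% of non-control spots were well above background. Probes printed several times gave the error of a single spot. The SD of a difference between single spots on a pair of arrays was 0.07 in the brightest quartile of all measured probes (291 repeated probes). It was 0.12 in the next quartile (5 probes) and 0.13 in the one below (3 probes), and the dimmest quartile held no repeated probe. This spread does not include differences between mice. In quartiles of genes, which were taken apart from those of probes, 21 of the 40 lay in the brightest, 14 in the next, 4 in the one below and 1, Pgm1, in the dimmest. All 4 groups were on 1 slide, so slide position cannot be told apart from group.

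The tissue carried the markers of its main cell types, and 1 array stood apart. The summed level of 8 neuronal markers lay between 227 and 238 on the 4 arrays, and that of 8 astrocyte markers between 59.1 and 64.0. The sum of 7 choroid plexus markers was 0.805 on wild-type starch, 2.01 on wild-type sucrose, 0.742 on heterozygous starch and 68.4 on heterozygous sucrose, with all 7 higher on the last array than on any array it was compared with. Striatal markers (7 measured) summed to 11.7, 22.9, 19.1 and 11.1 on the arrays in the same order. The 5 blood markers summed to 164, 76.4, 137 and 87.5, and the 6 endothelial markers to 30.4, 22.1, 27.3 and 22.1, both lower on the sucrose arrays. Diet in wild-type mice and genotype on starch are the comparisons that do not use the heterozygous sucrose array. Glo1 itself was at 4.04, 5.53, 2.74 and 3.04, so its level in heterozygous mice was 67.7% of wild-type on starch and 55.0% on sucrose. In bulk tissue, fewer cells of a type and less RNA per cell cannot be told apart.

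None of the 40 genes passed 1.5-fold in any of the comparisons. For sucrose against starch, 5.93% of all genes passed that threshold in wild-type mice and 5.57% in heterozygous mice. For heterozygous against wild-type, the share was 3.97% on starch and 4.58% on sucrose. Between heterozygous sucrose and wild-type starch 7.32% of genes passed it, and 8.45% passed it for the interaction, that is, the heterozygous diet difference minus the wild-type one. Much of that background came from dim genes. Among genes of the brightest quartile, where 21 of the 40 lay, the shares in the same order were 0.93%, 0.833%, 0.542%, 0.407%, 1.26% and 1.05%. A share of 0 of 40 is near these rates.

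**Figure D1:**
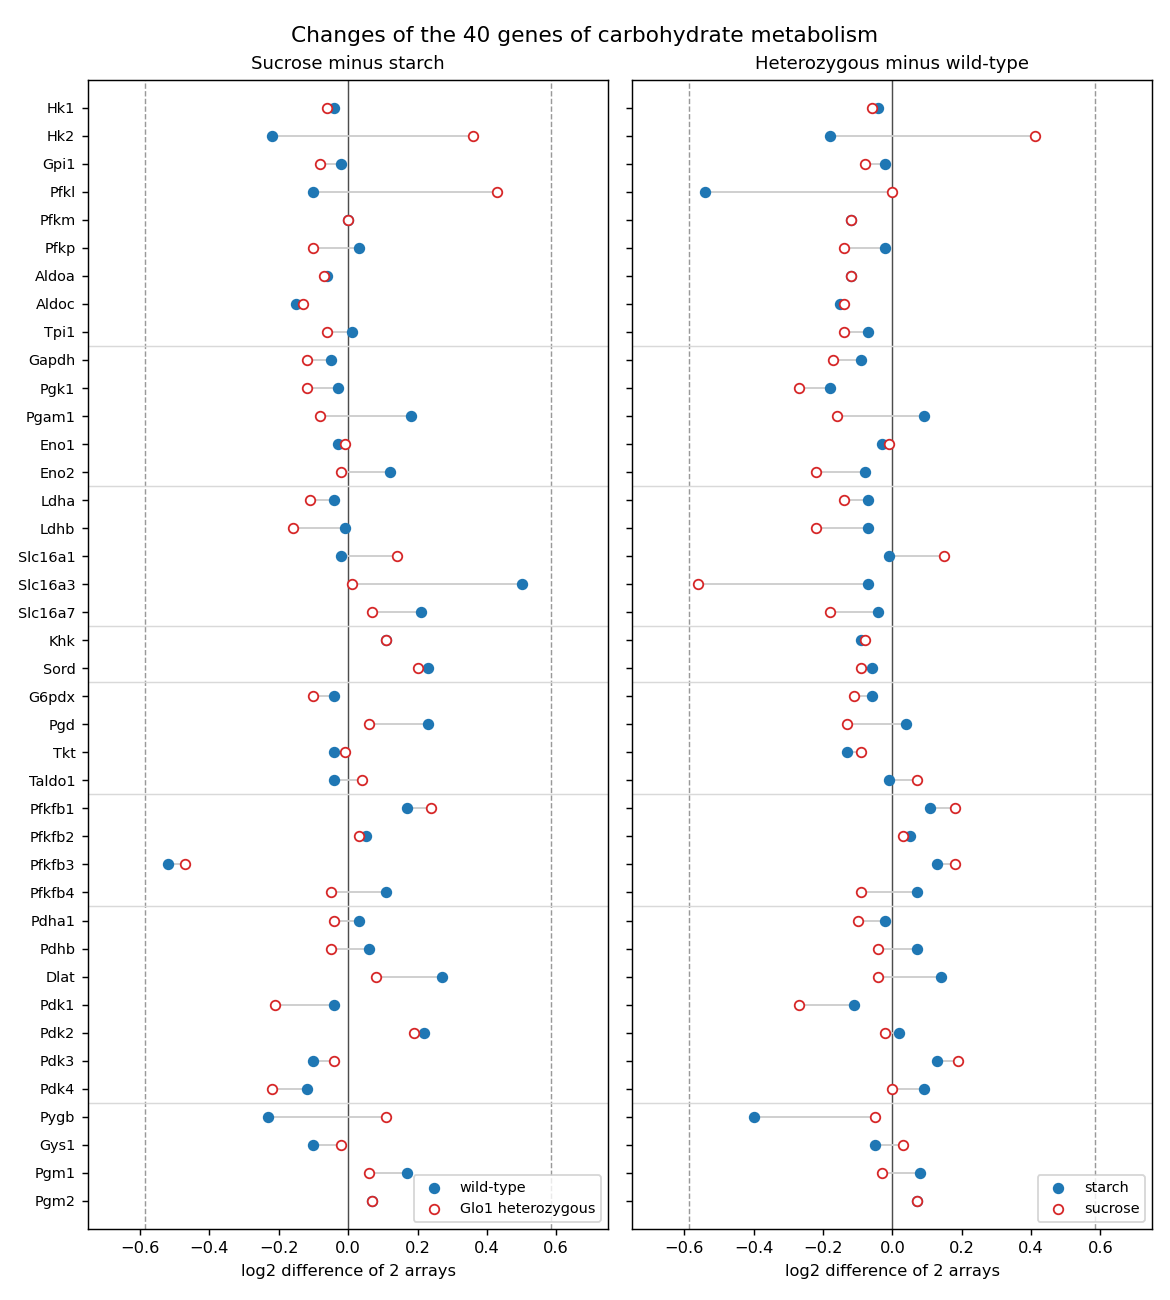
Log2 difference between a pair of arrays (x axis) for each of the 40 genes (rows, ordered by step, grey lines between steps), for sucrose minus starch (left, filled points wild-type, open points heterozygous) and heterozygous minus wild-type (right, filled points starch, open points sucrose). Dashed lines mark 1.5-fold, which no point passes. Pfkfb3 is the gene with the lowest diet values in both genotypes, at -0.52 and -0.47.

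At a looser threshold of 1.2-fold, 0.26 on the log2 scale, 3 genes passed for diet in wild-type mice (Slc16a3, Pfkfb3 and Dlat), against 26.3% of all genes and 10.1% of the brightest quartile. For diet in heterozygous mice 3 passed (Hk2, Pfkl and Pfkfb3), against 20.9% and 5.75%. For genotype on starch 2 passed (Pfkl and Pygb), against 20.7% and 5.38%, and for genotype on sucrose 4 (Hk2, Pgk1, Slc16a3 and Pdk1), against 18.7% and 5.75%. Between heterozygous sucrose and wild-type starch 6 passed (Aldoc, Pgk1, Pfkfb1, Pfkfb3, Pdk1 and Pygb), against 28.9% and 12.2%. For the interaction 4 passed (Hk2, Pfkl, Slc16a3 and Pygb), against 28.9% and 10.4%. Each of these counts, as a share of the 40 genes, was below that of all genes, which hold more dim probes. For Hk2, Pfkl and Pygb the interaction was positive with the brightest probe, and for Slc16a3 it was negative. For Pfkl it was 0.54, but -0.46 with the second probe and 0.04 with the mean of both, no longer past 1.2-fold.

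**Figure D2:**
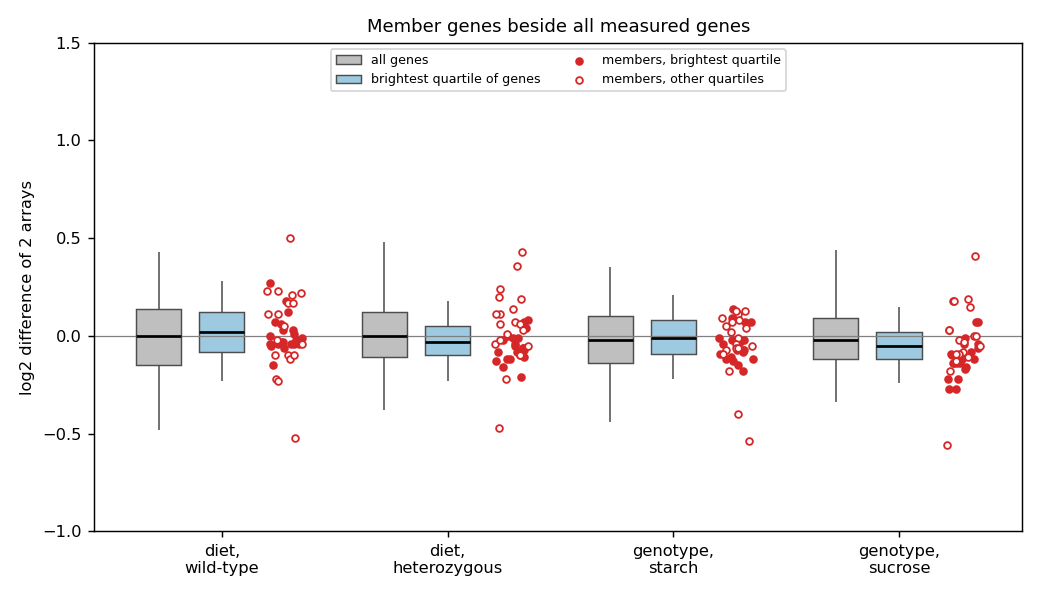
Log2 differences (y axis) in 4 comparisons (x axis). Grey boxes show all 20655 genes and blue boxes the 5164 genes of the brightest quartile (median, middle 50% of genes, and lines from the 5th to the 95th percentile), and red points show the 40 members (filled where in the brightest quartile). For genotype on sucrose the filled points lie mostly below 0, with a median of -0.12, where the blue box has a median of -0.05.

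Pfkfb3 varied most over the arrays. It encodes the isoform of the bifunctional enzyme that chiefly makes fructose-2,6-bisphosphate, the activator of phosphofructokinase 1. Its brightest probe (chr2:11393579-11393638, build mm9) read 2.42 on wild-type starch, 1.69 on wild-type sucrose, 2.65 on heterozygous starch and 1.92 on heterozygous sucrose. Both sucrose arrays lay below both starch arrays. Sucrose minus starch was -0.52 for wild-type and -0.47 for heterozygous mice, and the genotype difference was 0.13 on starch and 0.18 on sucrose. Pfkfb3 was the only member lower by 1.2-fold for diet in both genotypes, against 3.75% of all genes, and no member was higher by 1.2-fold in both, against 4.09%. It was also the only member whose highest array passed 1.5-fold over its lowest (1.57-fold), against 14.7% of all genes and 2.48% of the brightest quartile. A second, dimmer probe read 0.0369, 0.0308, 0.0494 and 0.0267, and gave diet differences of -0.26 and -0.89 and genotype differences of 0.42 and -0.21. With the mean of both probes the genotype difference was 0.28 on starch and -0.01 on sucrose, so its sign on sucrose depends on the probe. Blood and endothelial markers had median diet differences of -1.58 and -0.20 in wild-type mice and -0.81 and -0.14 in heterozygous mice. No blood marker was higher on sucrose, but 2 of 6 endothelial markers were in wild-type mice and 1 of 6 in heterozygous mice. Medians were also below 0 in both genotypes for astrocytes (-0.13 and -0.04), oligodendrocytes (-0.12 and -0.08) and microglia (-0.11 and -0.07). In wild-type mice those of neurons (0.01), choroid plexus (0.78) and striatum (1.11) were above 0. The part of any of these in the Pfkfb3 values was not tested.

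An additive fit of diet and genotype over all 4 arrays (limma, Benjamini-Hochberg over 42094 probes, 1 residual degree of freedom) was the one test the design allowed. It takes the interaction as error. For Pfkfb3, lower on both sucrose arrays, it gave a diet difference of -0.49 with an SE of 0.09. The limma p of that difference was 0.00864 before adjustment, and its adjusted p was 0.532. With this fit 0 of the 40 members and 0% of all probes passed an adjusted p of 0.05 for diet or for genotype. With a trended prior variance 1 probe passed for diet, and with normexp background correction 28, none of them a member's brightest probe. At an unadjusted p of 0.05, 1 member (Pfkfb3) passed for diet, against 8.8% of probes, and 0 for genotype, against 6.42%. The trended prior variance, which lets the prior error vary with the brightness of a probe, gave 4 for diet (Aldoc, Sord, Pfkfb3 and Pdk2), against 11% of probes, and 7 for genotype, against 8.22%. Those 7 (Aldoa, Aldoc, Gapdh, Pgk1, Eno2, Ldhb and Pdk1) are bright and were lower in heterozygous mice, and none passed after adjustment. The smallest limma adjusted p of any member for genotype was 0.733 in the fit without a trend and 0.601 with the trended prior variance, the lowest over the alternatives.

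No other bifunctional enzyme was lower on sucrose in both genotypes. Pfkfb1, first known from liver and muscle, read 0.0906 on wild-type starch, 0.102 on wild-type sucrose, 0.0978 on heterozygous starch and 0.115 on heterozygous sucrose, with diet differences of 0.17 and 0.24. These values were low on all 4 arrays, and the spot error at such signals is wider. Pfkfb2, the heart isoform, had diet differences of 0.05 and 0.03, and Pfkfb4 of 0.11 and -0.05. For genotype on starch the 4 isoforms gave 0.05 to 0.13, no wider than about the spot error.

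To show the sequence in front of the genes with the widest differences, promoter windows from RefSeq (build GRCm38.p6) are given for both start sites of Pfkfb3, for Slc16a3, the second widest, and for Pgk1, the widest of the bright glycolytic enzymes. Each is the 250 bases before a start site, 5′ to 3′ on the gene's strand, at chr2:11553930-11554179 and chr2:11502091-11502340 (minus strand), chr11:120948817-120949066 and chrX:106186850-106187099 (plus strand). Capitals mark ACGTG or GCGTG, the core letters of the element bound by hypoxia-inducible factors, which are known regulators of glycolytic genes, or the complement on the other strand.
Pfkfb3, first start site: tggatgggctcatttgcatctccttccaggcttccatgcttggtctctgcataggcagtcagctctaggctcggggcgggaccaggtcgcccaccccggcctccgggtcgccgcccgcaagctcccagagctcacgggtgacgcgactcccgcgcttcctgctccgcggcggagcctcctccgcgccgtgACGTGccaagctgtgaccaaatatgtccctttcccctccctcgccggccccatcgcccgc
Pfkfb3, second start site: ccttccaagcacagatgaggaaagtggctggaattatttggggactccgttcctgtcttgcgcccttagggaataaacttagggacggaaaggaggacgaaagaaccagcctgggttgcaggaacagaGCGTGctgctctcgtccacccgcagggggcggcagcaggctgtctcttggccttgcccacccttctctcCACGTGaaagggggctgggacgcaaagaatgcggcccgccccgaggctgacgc
Slc16a3: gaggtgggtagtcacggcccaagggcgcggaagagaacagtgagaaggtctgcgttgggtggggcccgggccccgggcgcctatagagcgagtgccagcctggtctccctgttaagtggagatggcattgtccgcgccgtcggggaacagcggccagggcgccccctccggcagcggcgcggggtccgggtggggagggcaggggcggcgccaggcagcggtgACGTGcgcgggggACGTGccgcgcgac
Pgk1: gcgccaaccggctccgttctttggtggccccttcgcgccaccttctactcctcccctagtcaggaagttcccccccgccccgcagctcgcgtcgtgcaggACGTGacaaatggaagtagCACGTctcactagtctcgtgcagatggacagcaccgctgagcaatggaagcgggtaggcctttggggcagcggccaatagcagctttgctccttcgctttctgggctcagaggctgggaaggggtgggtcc
In Pfkfb3 the core began 60 bases before the first start site, and 122, 53 and 52 bases before the second, where both last matches overlap in one CACGTG. In Slc16a3 it began 27 and 14 bases before the start, and in Pgk1 150 and 131 bases before it. Over all members, 43 of 58 windows (74.1%) and 33 of 39 members with a window held the core on either strand, against 38.6% of 32851 mouse windows of the same length. The windows of members were also richer in G and C, with a median of 60.0% against 52.4%, and held a median of 14 CpG against 6. The core contains a CpG, so the share with a match and the base composition are not independent. CACGTG, which includes ACGTG on both strands and so is counted in both searches, was found in 12.1% of member windows and 6.0% of all windows, and TGACGT, the core of the cyclic AMP element, in 8.6% and 6.5%. Dlat and Sord were among the 6 members whose windows held neither ACGTG nor GCGTG, which says only that these letters are not in them.

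Phosphorylation of glucose is carried out by hexokinases. Hk1, the main hexokinase of brain, read 47.4 on wild-type starch, 46.1 on wild-type sucrose, 46.0 on heterozygous starch and 44.2 on heterozygous sucrose, a span of 0.10 for its brightest probe. A second Hk1 probe, nearly as bright, read 34.8, 46.0, 35.3 and 40.2 in that order, higher on both sucrose arrays, with diet differences of 0.40 and 0.19. The mean of the 4 measured Hk1 probes gave 0.18 and 0.04. Hk2, the insulin-responsive isoform of muscle and fat, read 0.211, 0.181, 0.187 and 0.240 in that order. Its diet difference was -0.22 in wild-type mice and 0.36 in heterozygous mice, and the genotype difference was -0.18 on starch and 0.41 on sucrose. The resulting interaction of 0.58 was the highest of the 40 and lay just short of 1.5-fold. Hk2 had a single measured probe in a dim quartile, and its highest array was the one with the choroid plexus signal, whose part was not tested.

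Phosphofructokinase 1, the committed step, is built from muscle (Pfkm), platelet (Pfkp) and liver (Pfkl) subunits. Pfkm read 22.4 on both wild-type arrays and 20.6 on both heterozygous arrays. Its genotype difference was -0.12 on each diet, and its diet differences were 0.00 in each genotype. Pfkp ranged from 13.2 on heterozygous sucrose to 14.6 on wild-type sucrose with its brightest probe, a genotype difference on starch of -0.02. The 4 other measured Pfkp probes gave 0.03, 0.29, 0.80 and 0.85 for that difference. These probes were dimmer, and read 4.54, 2.73, 0.497 and 0.0880 on wild-type starch in that order, against 14.3 for the brightest. The mean of all 5, which weights dim and bright probes alike, was 0.39, past 1.2-fold. Pfkl read 1.89 on wild-type starch, 1.76 on wild-type sucrose, 1.30 on heterozygous starch and 1.76 on heterozygous sucrose, so 1 array, heterozygous starch, was low. The genotype difference on starch was -0.54, and the diet difference in heterozygous mice 0.43. A second measured Pfkl probe pointed the other way on starch, at 0.47, with 0.595, 0.894, 0.823 and 0.902 on the arrays in order. The mean of both probes was -0.03 for genotype on starch, and the cause of their disagreement was not tested.

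Aldolase C (Aldoc), the aldolase of brain and within it of astrocytes, was printed 10 times on each array with each of its brighter probes. The brightest (chr11:78140198-78140257, build mm9) read 97.7 ± 3.61 on wild-type starch, 88.4 ± 5.21 on wild-type sucrose, 88.0 ± 6.24 on heterozygous starch and 80.4 ± 4.30 on heterozygous sucrose (SD over 10 spots of 1 array). The wild-type starch array was the highest, both arrays with a single change were alike, and heterozygous sucrose was the lowest. The other repeated probe read 60.1 ± 1.10, 55.4 ± 1.21, 54.9 ± 1.25 and 50.6 ± 0.958 (SD over 10 spots), in the same order. The brightest probe differed by -0.15 and -0.13 with diet and by -0.15 and -0.14 with genotype, with a spot error (SE) of 0.03 to 0.04, and -0.28 between heterozygous sucrose and wild-type starch. All of these are under 1.2-fold except the last, and the spots of one array share its pool of RNA. Under quantile normalization, which forces all arrays to one distribution of signal, the diet differences were 0.00 and 0.04, the genotype differences -0.05 and -0.01, and that between heterozygous sucrose and wild-type starch -0.01. All of the Aldoc differences thus depend on how the brightest signals are scaled. Astrocyte markers had a median diet difference of -0.13 in wild-type mice and -0.04 in heterozygous mice, and a median genotype difference of 0.01 on starch and 0.08 on sucrose.

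**Figure D3:**
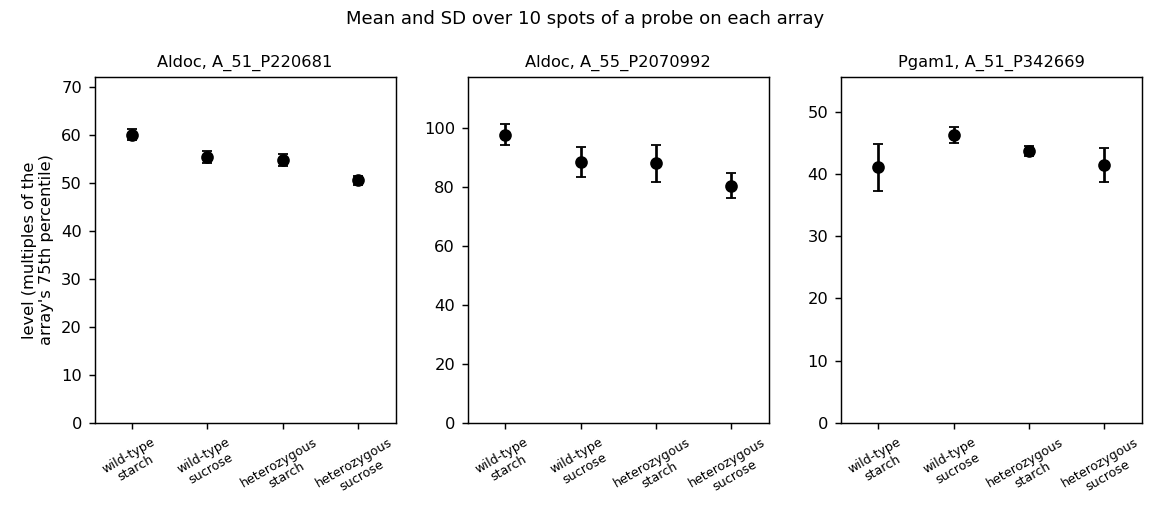
Level (y axis, multiples of the array's 75th percentile) on each array (x axis) of the 3 repeatedly printed probes of the members, as the mean over 10 spots with SD bars. With each array scaled to its 75th percentile, both Aldoc probes are highest on wild-type starch (60.1 and 97.7) and lowest on heterozygous sucrose (50.6 and 80.4), and Pgam1 is highest on wild-type sucrose (46.3).

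Of the remaining enzymes of glycolysis, Pgk1 alone passed 1.2-fold in a pairwise comparison with its brightest probe. Aldoa, the ubiquitous aldolase, spanned 126 to 143, Gpi1 (glucose-6-phosphate isomerase) 62.1 to 66.5 and Tpi1 (triosephosphate isomerase) 32.0 to 35.2. For genotype on starch the brightest Tpi1 probe gave -0.07, but the other 3 gave -0.31, -0.28 and -0.36, and the mean of all 4 was -0.25. Gapdh, often used as a reference gene, read 106 on wild-type starch, 103 on wild-type sucrose, 99.2 on heterozygous starch and 91.4 on heterozygous sucrose with its brightest probe. That probe gave -0.17 for genotype on sucrose and -0.12 for diet in heterozygous mice. The other measured Gapdh probes gave -0.11 to 0.03 and -0.08 to 0.07 for these, so the drop on heterozygous sucrose was widest in the brightest probe. Pgk1, phosphoglycerate kinase, read 82.7, 80.9, 72.8 and 66.9 in that order, with genotype differences of -0.18 on starch and -0.27 on sucrose, the second past 1.2-fold. Both heterozygous arrays lay below both wild-type arrays for this brightest Pgk1 probe. The second Pgk1 probe was far dimmer, at 0.0330 to 0.0413 over the arrays. With the mean of both probes the genotype difference was 0.07 on starch and -0.17 on sucrose. Enolase 1 (Eno1) spanned 57.6 to 59.1, the smallest relative span of the 40 (0.04), although a dimmer Eno1 probe had a wild-type diet difference of 0.42 and a genotype difference on starch of 0.39, and the neuronal enolase Eno2 34.5 to 40.1. Pgam1, phosphoglycerate mutase, read 41.1 ± 3.80, 46.3 ± 1.27, 43.7 ± 0.860 and 41.5 ± 2.69 (SD over 10 spots), and its second measured probe gave differences of 0.01 for diet in each genotype and -0.08 for genotype on each diet.

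Of the 14 glycolytic enzymes, 12 lay in the brightest quartile, all but Hk2 and Pfkl. Of these 12, 11 had their lowest level on the heterozygous sucrose array, where 37.9% of all genes of that quartile did. Under quantile normalization only 2 did and 8 were lowest on wild-type starch. With the mean of a gene's measured probes 7 did. Between heterozygous sucrose and wild-type starch 11 of the 12 were lower (median -0.12), against 57.9% of the quartile, and 3 of the 12 under quantile normalization (median 0.06). All 12 were lower in heterozygous than in wild-type mice on sucrose, by a median of -0.14, where the brightest quartile as a whole had a median of -0.05 and 69.9% of its genes lower. Quantile normalization left 9 of the 12 lower, with a median of -0.05. For genotype on starch 11 of the 12 were lower (median -0.07), against 51.6% of the quartile, but quantile normalization turned that to 3 of 12 (median 0.02), and for diet in heterozygous mice it turned 12 of 12 lower (median -0.07), against 60.1% of the quartile, to 5 of 12 (median 0.02). For diet in wild-type mice 7 of the 12 were lower (median -0.02), against 44.3% of the quartile, and 1 of 12 under quantile normalization (median 0.08). With the mean of a gene's measured probes 4 of 12 were lower there (median 0.05). That mean left 11 of 12 lower for genotype on sucrose, 8 for genotype on starch, 8 for diet in heterozygous mice and 10 between heterozygous sucrose and wild-type starch. These shifts are smaller than 1.2-fold, and all but that for genotype on sucrose change sign with the scaling of bright signals. The share of the brightest quartile was not computed under quantile normalization or with the mean of probes, so those counts have no background beside them. The genotype shift on sucrose rests on the array with the choroid plexus markers, whose part was not tested.

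Lactate dehydrogenase, built from the subunits of Ldha and Ldhb, converts pyruvate and lactate into each other. Ldha read 60.5, 58.6, 57.5 and 53.3 on wild-type starch, wild-type sucrose, heterozygous starch and heterozygous sucrose, and Ldhb 60.0, 59.6, 57.0 and 51.1. Both were lowest on heterozygous sucrose, with genotype differences on sucrose of -0.14 and -0.22, and -0.07 each on starch. Over the processing alternatives the difference on starch reached 0.02 for both genes, so its sign was not kept. That on sucrose stayed below 0, reaching -0.05 for Ldha and -0.13 for Ldhb. Between heterozygous sucrose and wild-type starch, Ldha went from -0.18 to 0.00 and Ldhb from -0.23 to -0.05 at the highest alternative. Monocarboxylate transporters move lactate and pyruvate across membranes. Slc16a3 (MCT4), the low-affinity transporter of glycolytic cells and astrocytes, read 0.274 on wild-type starch, 0.388 on wild-type sucrose, 0.261 on heterozygous starch and 0.262 on heterozygous sucrose, so wild-type sucrose was high and the other 3 arrays were alike. Sucrose minus starch was 0.50 for wild-type and 0.01 for heterozygous mice, and the genotype difference -0.07 on starch and -0.56 on sucrose. It is a dim gene with a single measured probe, and all of its larger differences rest on 1 array. That array also had the highest sum of striatal markers (22.9), whose part was not tested.

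The other transporters differed less. Slc16a1 (MCT1), found in endothelium and oligodendrocytes, spanned 1.66 to 1.85. Slc16a7 (MCT2), the high-affinity transporter of neurons, read 2.20, 2.55, 2.14 and 2.24, with diet differences of 0.21 and 0.07. The 5 further measured probes of Slc16a7 gave diet differences on both sides of 0.

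**Figure D4:**
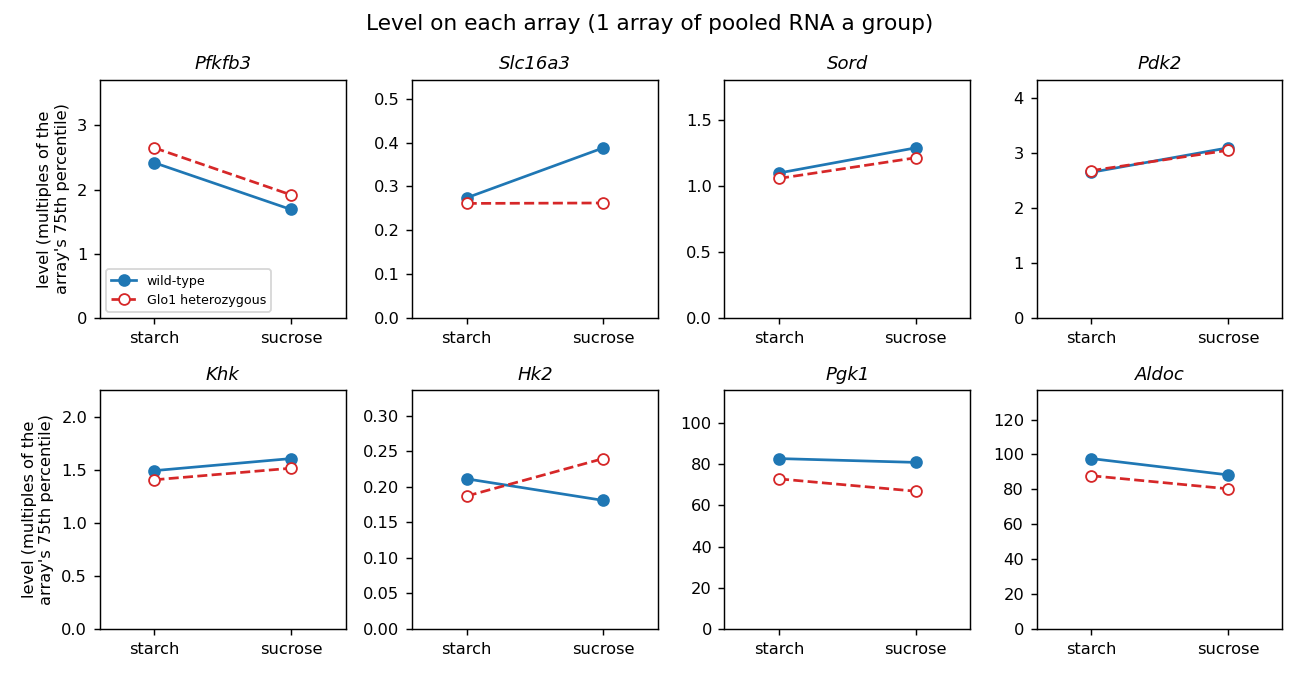
Level (y axis, multiples of the array's 75th percentile, from 0) of 8 genes on the starch and sucrose arrays (x axis) of wild-type (filled points, solid lines) and Glo1 heterozygous mice (open points, dashed lines), each point 1 array. The lines of Pfkfb3, Sord and Pdk2 run parallel in both genotypes, Slc16a3 is high on wild-type sucrose (0.388), and those of Hk2 cross.

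Fructose handling was represented by Khk and Sord. Khk, ketohexokinase, phosphorylates fructose, and read 1.49 on wild-type starch, 1.61 on wild-type sucrose, 1.41 on heterozygous starch and 1.52 on heterozygous sucrose. Its diet difference was 0.11 in each genotype, near the spot error, and its second probe gave -0.24 and -0.02. Sord, sorbitol dehydrogenase, oxidises sorbitol to fructose, and read 1.10, 1.29, 1.06 and 1.21 on the same arrays. Both sucrose arrays lay above both starch arrays. Sucrose minus starch was 0.23 for wild-type and 0.20 for heterozygous mice, and its second probe gave 0.31 and 0.27. Both probes thus had the same sign in both genotypes, while the brightest stayed under 1.2-fold.

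**Figure D5:**
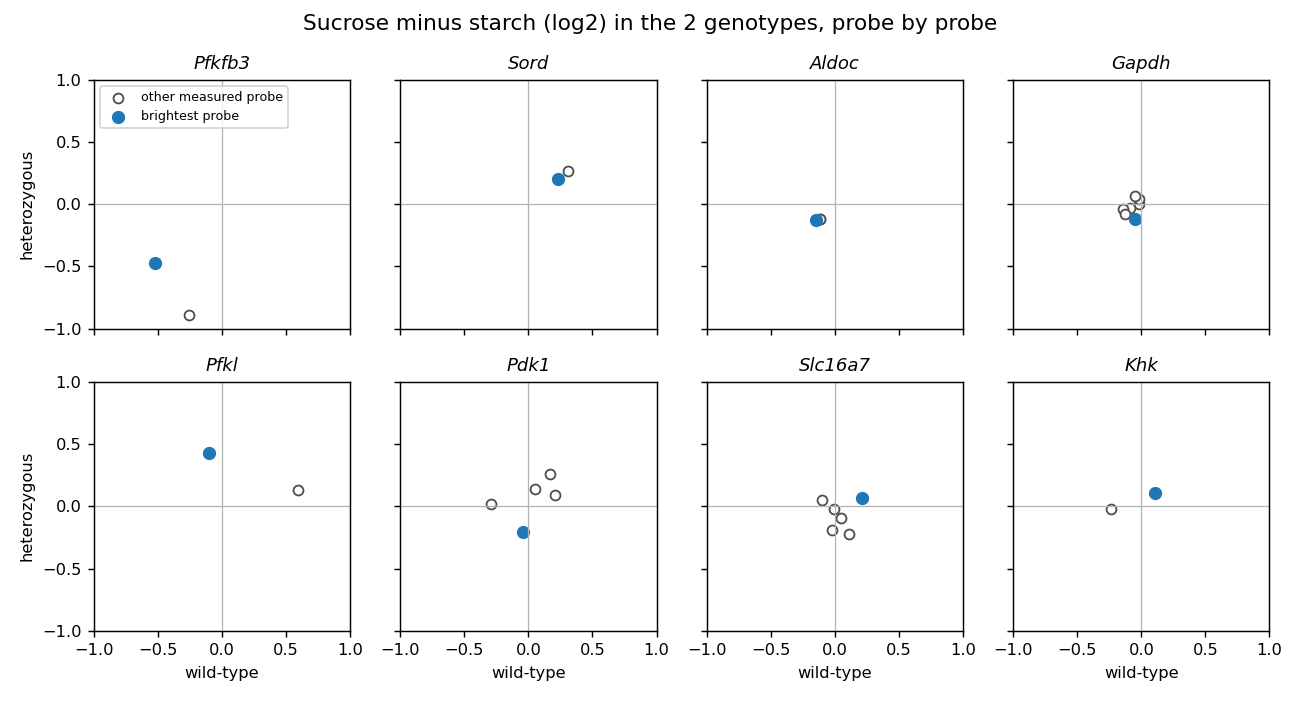
Sucrose minus starch, on the log2 scale, in wild-type (x axis) and in heterozygous mice (y axis), for each measured probe of 8 genes (filled points the brightest, open points the others). Both probes of Sord lie at upper right and both of Pfkfb3 at lower left, while the probes of Pdk1, Slc16a7 and Khk lie on both sides of 0, and those of Pfkl differ in sign in wild-type mice (-0.10 and 0.59).

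Pentose phosphate enzymes supply NADPH and ribose. G6pdx, the entry step, read 2.93, 2.84, 2.81 and 2.63 on wild-type starch, wild-type sucrose, heterozygous starch and heterozygous sucrose. Pgd, the second oxidative dehydrogenase, read 1.49, 1.74, 1.53 and 1.60, with diet differences of 0.23 and 0.06. Transketolase (Tkt) spanned 11.9 to 13.1 and transaldolase (Taldo1) 22.8 to 23.9. None of the 4 passed 1.2-fold in any comparison with its brightest probe, although much dimmer probes of Pgd and Tkt did.

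The pyruvate dehydrogenase complex links glycolysis to the citrate cycle, and its kinases switch it off. Of the subunits, Pdha1 spanned 7.82 to 8.37 and Pdhb 18.9 to 19.8. Dlat, the acetyltransferase, read 4.15 on wild-type starch, 4.99 on wild-type sucrose, 4.58 on heterozygous starch and 4.84 on heterozygous sucrose, with diet differences of 0.27 and 0.08. The second Dlat probe gave 0.07 and 0.24, and the mean of both gave 0.17 in wild-type mice, under 1.2-fold. Pdk2, the kinase found in most tissues, read 2.65, 3.09, 2.68 and 3.05, and both sucrose arrays lay above both starch arrays. Its diet differences were 0.22 and 0.19, from a single probe, and its genotype differences were 0.02 and -0.02.

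The brightest probes of the other kinases gave diet differences below 0 in both genotypes. Pdk4, known to be induced by fasting, read 0.485, 0.445, 0.517 and 0.444, with diet differences of -0.12 and -0.22, the first of them near the spot error of dim probes. Pdk3 read 1.81, 1.68, 1.98 and 1.92, and its genotype differences of 0.13 on starch and 0.19 on sucrose were among the highest of the 40. Its second measured probe gave -0.01 and 0.10, and the mean of both 0.06 and 0.14. Pdk1, a known target of hypoxia-inducible factor, read 7.75, 7.54, 7.20 and 6.24, with a genotype difference of -0.27 on sucrose. The further 4 measured Pdk1 probes gave genotype differences on sucrose of -0.13 to -0.01. With the mean of all 5 the diet differences of Pdk1 were 0.02 and 0.06, in place of -0.04 and -0.21.

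Glycogen, which the brain stores mainly in astrocytes, is broken down by phosphorylase and made by glycogen synthase. Pygb, the brain phosphorylase, read 2.38 on wild-type starch, 2.02 on wild-type sucrose, 1.81 on heterozygous starch and 1.95 on heterozygous sucrose, so wild-type starch was high. Its genotype difference was -0.40 on starch and -0.05 on sucrose, and its diet difference -0.23 and 0.11. The second Pygb probe gave -0.23 and 0.14 for genotype and -0.16 and 0.20 for diet. Gys1, the glycogen synthase of muscle and brain, spanned 0.879 to 0.943. The phosphoglucomutases, which link glycogen to glucose-6-phosphate, spanned 0.0548 to 0.0617 for the gene the array calls Pgm1 and 11.1 to 12.1 for Pgm2. By accession RefSeq gives these 2 names the other way round.

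A further 63 gene symbols of the same pathways were listed, of which 60 were on the array and 53 were measured. Past 1.5-fold, 1 was higher and 0 lower for diet in wild-type mice, 2 higher and 0 lower for diet in heterozygous mice, 0 for genotype on starch, and 1 higher and 0 lower for genotype on sucrose. As shares of the 53 these are below those of all genes, which were 5.93%, 5.57%, 3.97% and 4.58% in that order. Gys2, the glycogen synthase of liver, read 0.0102, 0.0222, 0.0110 and 0.0247, with diet differences of 1.11 and 1.16. It has a single, very dim probe. Slc16a8 (MCT3), a transporter of retinal pigment and choroid plexus epithelium, read 0.0252, 0.0276, 0.0190 and 0.0740, with differences of 1.96 for diet in heterozygous mice and 1.42 for genotype on sucrose. It was high on the array with the choroid plexus markers, whose part was not tested. For the interaction, Slc16a8 (1.83) and G6pc (-0.61) passed, 2 of the 53 against 8.45% of all genes. G6pc, the glucose-6-phosphatase of liver, read 0.0342, 0.0394, 0.0352 and 0.0265 on a single dim probe.

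Of the listed genes under 1.5-fold, 3 are named here after their values were seen. Hkdc1, a further hexokinase-like gene, read 2.45, 3.55, 2.29 and 3.15, with both sucrose arrays above both starch arrays and diet differences of 0.53 and 0.46. Pdp1, the phosphatase that reactivates pyruvate dehydrogenase, read 15.9, 12.7, 16.0 and 11.0, with diet differences of -0.33 and -0.54, and -0.39 and -0.50 on its second probe. Pkm, pyruvate kinase, the last step of glycolysis, had diet differences of -0.08 and -0.01 and genotype differences of -0.16 and -0.09 with its brightest probe. A second bright Pkm probe read 41.0, 32.5, 32.1 and 31.6, so wild-type starch was high, with a wild-type diet difference of -0.34 and a genotype difference on starch of -0.36. Another Pkm probe gave -0.07 and -0.17 for these, and the dimmest measured one 0.40 and 0.46, so the Pkm probes disagree.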

How the data were processed

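RNA was measured on 4 single-colour Agilent arrays, 1 for each group. The deposited intensity values are the processed signals of Agilent Feature Extraction 11.5.1.1 (per the submitters' processing notes), which per the file headers were background-subtracted with spatial detrending, detrended within the array, and given surrogate values at the low end. The deposited series matrix holds a ratio, which on comparison with the scanner files was the processed signal divided by the array's 75th percentile. The number of arrays limits the precision.

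From the intensities, each signal was divided by its array's 75th percentile and put on a log2 scale, without control spots or spots marked as outliers, with spots of a probe averaged. Probes well above background on all 4 arrays were kept (42094 of 56605), 35477 of them with a gene symbol. The 40 members had 98 probes, 93 of them measured. Their accessions matched RefSeq (GRCm38.p6) under the same symbol for 34, another symbol for 2 and none for 4. The fit used limma 3.58.1 in R 4.3.3, and its code was run on simulated data. No power to detect a difference is given for the design of these arrays. The lack of members passing after adjustment therefore does not show that differences are absent. Probe coordinates are those of the files (mm9), and promoter windows come from RefSeq.

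Named genes were those past 1.5-fold, the 3 highest and 3 lowest by mean diet and by mean genotype difference, the 2 highest and 2 lowest interactions, and examples for each step. Other pathway genes were named past 1.5-fold in a pairwise comparison. Outside this rule, G6pc (interaction alone), Bsg (opposite signs between groups), Hkdc1, Pdp1 and Pkm were named after their values were seen. Alternatives were median scaling, quantile normalization, normexp background correction with an offset of 50, the series matrix, the mean of a gene's probes, no filter on dim probes, outlier spots kept, other fold thresholds and a trended prior variance. The members and lists, including 8 lists of cell type markers, were chosen with earlier results of these data known.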

Additional observations from a re-analysis of the deposited data

Results flagged for a closer look

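Bsg, which encodes basigin, the chaperone that carries monocarboxylate transporters to the cell surface, differed in opposite directions between groups. It read 4.41 on wild-type starch, 3.44 on wild-type sucrose, 3.35 on heterozygous starch and 3.86 on heterozygous sucrose. With sucrose it differed by -0.36 in wild-type mice and by 0.20 in heterozygous mice. The genotype difference was -0.40 on starch and 0.16 on sucrose, all on the log2 scale. Each of these differences is wider than 0.14, which is 2 SD of a difference between single spots of bright probes. The values of 0.20 and 0.16 rest on the heterozygous sucrose array, where choroid plexus markers summed to 68.4 against 0.742 to 2.01 on the other arrays. Endothelial markers summed to 30.4 on wild-type starch, 22.1 on wild-type sucrose, 27.3 on heterozygous starch and 22.1 on heterozygous sucrose. The part of either in the Bsg values was not tested. With 1 array in each group and a single probe, the difference between groups was not tested.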

How the results depend on the processing

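At a threshold of 1.2-fold in place of 1.5-fold, the counts of members were 3 for diet in wild-type mice, 3 for diet in heterozygous mice, 2 for genotype on starch, 4 for genotype on sucrose, 6 for heterozygous sucrose against wild-type starch and 4 for the interaction, each 0 at 1.5-fold and at 2-fold. With the mean of a gene's measured probes, 1 member passed 1.5-fold for diet in heterozygous mice (Pfkfb3, -0.68). With median scaling and with quantile normalization, 1 member passed for genotype on sucrose (Slc16a3, -0.61 at the lowest). All other counts stayed at 0 under the 7 processing alternatives. Of 1680 member values under the alternatives, 136 moved by more than the spot error, 73 of them with the mean of a gene's probes and 62 with quantile normalization. The 18 member values past 1.2-fold in the pairwise comparisons kept their sign under all 7, but 9 of them fell below 1.2-fold under at least 1. With the mean of a gene's probes 8 did, among them Pfkl for genotype on starch (-0.03 in place of -0.54), and between heterozygous sucrose and wild-type starch Pgk1 (-0.05), Pdk1 (-0.08) and Pygb (-0.15). With quantile normalization 5 did, among them Aldoc in that comparison (-0.01 in place of -0.28), and with normexp 2. In the other direction, 3 pairwise member values newly passed 1.2-fold with the mean of probes (Sord for diet in wild-type mice, Pfkp and Pfkfb3 for genotype on starch), 2 with median scaling (Ldhb for genotype on sucrose and for heterozygous sucrose against wild-type starch) and 1 with quantile normalization (Pgam1 for sucrose in wild-type mice). For the interaction, the mean of probes took Pfkl below 1.2-fold (0.04 in place of 0.54) and Pfkp (-0.39), Pfkfb3 (-0.29, in place of 0.05) and Tkt (-0.27, in place of 0.04) past it, and Pgam1 passed with median scaling (-0.29), quantile normalization (-0.29) and normexp (-0.28). Quantile normalization gave member medians of 0.08 for diet in wild-type mice, 0.04 for diet in heterozygous mice, 0.02 for genotype on starch and -0.04 for genotype on sucrose, in place of -0.01, -0.02, -0.04 and -0.09. No scaling moved the median of all genes by more than 0.1. The limma adjusted p of Pfkfb3 for diet lay between 0.136 and 0.814 over the alternatives, and no alternative called a member. No paired analysis was possible because each group has 1 array, and for the same reason none could be left out.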
